A study of Mus musculus with 6 samples.

Results

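The genes described here are Fas, Tnfrsf1a, Fadd, Casp8, Casp9, Bid, Bax, Bcl2l1 and Mcl1, which carry the death signal of Fas and of the TNF receptor to the caspases and to the mitochondria. They were taken by symbol from a table of 51912 genes in which all 9 were found once, and all 9 passed a filter for expressed genes (1 TPM or more in 3 or more samples), as did 13325 genes. TPM is the share of a transcript in the RNA of a sample, corrected for gene length, so levels of different genes can be compared on it. The samples were livers of C57/B6 mice at 21 days of age, with 3 samples from pups given regular breastmilk (vehicle) and 3 from pups given breastmilk of mothers that received Triclosan at 120 ppm (TCS). By the study's methods these were male wild-type pups, each sample pooled the RNA of 3 mice, and TCS, or vehicle alone, was in the chow of the mothers from pregnancy on, so exposure before birth and through milk cannot be told apart. A pool hides the spread between its mice. The study's methods state more than 1 litter per group, but the litters behind each pool are not given in the sources used here. Pools of a group may therefore share litters, and p-values measure the spread between pools and not between litters.

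Fas and TNF receptor 1 are membrane receptors with a death domain. Once bound by ligand, Fas recruits the adaptor Fadd, which in turn gathers and activates the initiator caspase Casp8, whereas TNF receptor 1 mostly signals for survival and inflammation and forms its Casp8 complex later. In hepatocytes Casp8 needs the mitochondrial branch to kill efficiently: it cleaves Bid, whose fragment activates Bax in the outer mitochondrial membrane, cytochrome c escapes, and Casp9 is activated on Apaf1. Bcl2l1, which encodes Bcl-xL, and Mcl1 hold Bax and its relative Bak1 in check, and loss of either in mouse hepatocytes is known to cause spontaneous apoptosis.

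Livers of TCS breastfed mice held more Fas RNA, at 1.54 times the vehicle mean, and less Bcl2l1 RNA, at 0.582 times the vehicle mean. Both genes separated the 3 TCS from the 3 vehicle samples without overlap. Tnfrsf1a and Bax differed little, with means at 0.983 and 1.06 times those of vehicle, and the other 5 genes were 1.16 to 1.27 times as high on average. By limma's moderated test with Benjamini-Hochberg adjustment over the 13325 genes, 0 of the 9 had an adjusted p under 0.05, as compared with 0.173% of all genes (23 genes), and the smallest adjusted p were 0.0847 for Bcl2l1 and 0.0875 for Fas. The paper's own analysis, which was not repeated here, reports many more genes at that threshold, more of them lower than higher. At an unadjusted p under 0.05, 3 of the 9 were higher (Fas, Casp8 and Mcl1) and 1 was lower (Bcl2l1), next to 19.5% of all genes that were higher and 3.50% that were lower. Groups did not overlap for 5 of the 9 on the higher side (Fas, Fadd, Casp8, Bid and Mcl1) and for Bcl2l1 on the lower side, next to 25.1% and 4.61% of all genes.

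These counts depend on how the samples are scaled to each other, because the median gene had a log2 fold change of 0.13 in favour of TCS. Once TPM was rescaled by median-of-ratios factors, which set the median gene near 0, the unadjusted split over all genes turned from 2597 higher and 466 lower to 1103 higher and 1167 lower. Among the 9 genes Fas was then the 1 higher at an unadjusted p under 0.05, while Bcl2l1 and Tnfrsf1a were lower. Groups then did not overlap for Fas and Mcl1 on the higher side and for Bcl2l1 and Tnfrsf1a on the lower side, next to 11.7% and 12.4% of all genes, so Casp8, Fadd and Bid no longer separated the groups. Fas and Bcl2l1 thus kept their side under either scaling.

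**Figure D1:**
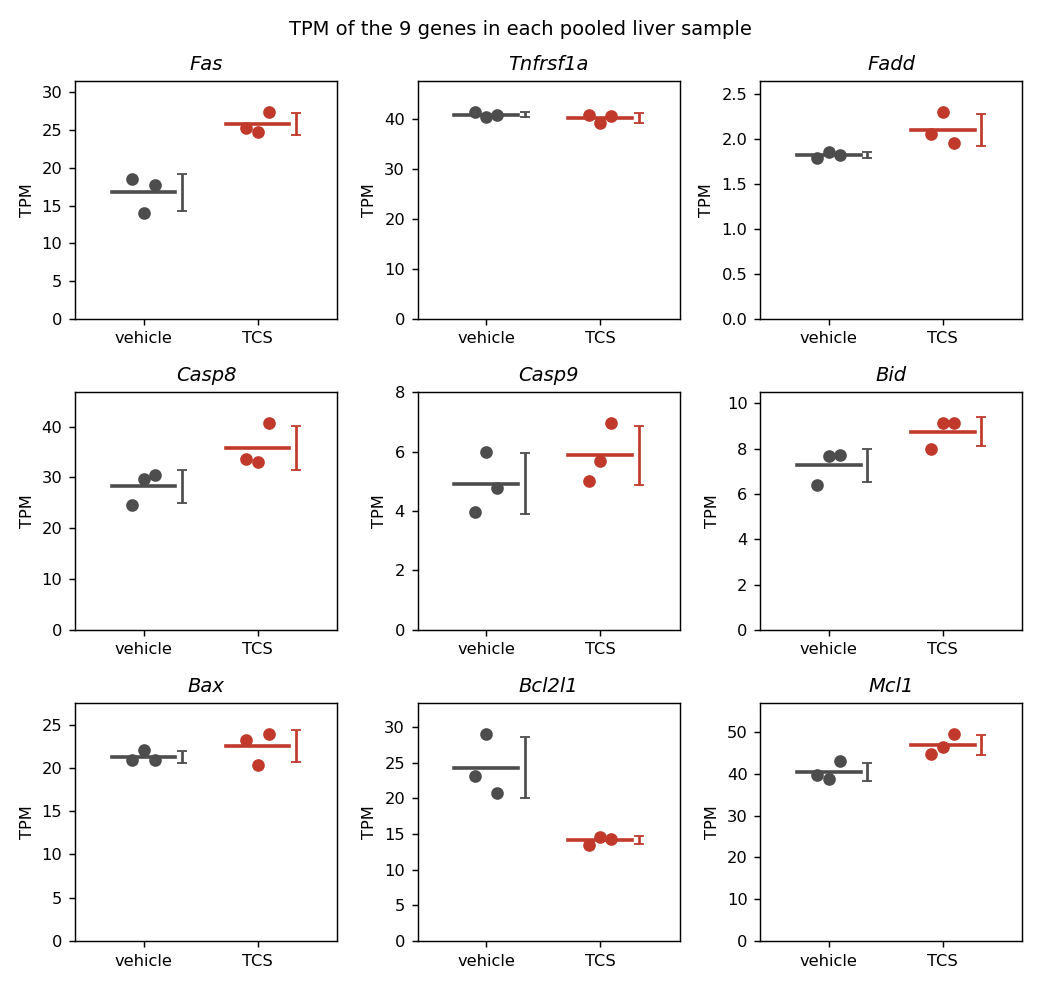
Each panel shows the TPM of 1 gene from 0 upward, with a point for each pooled liver sample, a line at the group mean and a bar of 1 SD to its right (n = 3 per group). Fas lies at 14.0 to 18.5 TPM in vehicle and 24.7 to 27.4 TPM in TCS, Bcl2l1 at 20.7 to 29.0 and 13.5 to 14.6, while the groups of Tnfrsf1a, Casp9 and Bax overlap.

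The 250 bases before the annotated starts of Fas and Bcl2l1 are shown because these are the genes of the set with the largest differences, in opposite directions. The sequences are RefSeq's for GRCm38.p6, the build the reads were aligned to (as mm10), each read 5′ to 3′ on the strand of its gene and ending at the base before the start. Fas is shown from chr19:34290409-34290658 on the plus strand, and Bcl2l1 from chr2:152831729-152831978 on the minus strand, the outermost of the 3 starts that RefSeq lists for it. Neither window touches an exon of GENCODE M21. The letters searched on both strands were GGGCGG, known as the GC box, then TATAAA, the core of the TATA box, and TTCNNNGAA, the palindrome that STAT factors bind. The fourth motif was CCAAT, and capitals mark the matches.
Fas: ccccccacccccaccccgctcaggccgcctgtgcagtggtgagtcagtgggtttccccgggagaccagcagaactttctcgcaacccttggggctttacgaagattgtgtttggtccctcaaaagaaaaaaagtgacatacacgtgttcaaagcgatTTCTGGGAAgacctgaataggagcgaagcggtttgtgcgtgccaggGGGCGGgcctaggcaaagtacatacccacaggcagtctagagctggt
Bcl2l1: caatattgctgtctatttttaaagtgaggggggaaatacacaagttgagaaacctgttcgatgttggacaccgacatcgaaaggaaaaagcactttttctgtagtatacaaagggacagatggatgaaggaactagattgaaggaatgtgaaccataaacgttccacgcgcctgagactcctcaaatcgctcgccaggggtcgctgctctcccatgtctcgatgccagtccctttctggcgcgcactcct
The Fas window holds 1 match to TTCNNNGAA and 1 to GGGCGG, and the Bcl2l1 window holds none of the 4. Of 32851 RefSeq windows of this length, 7.02% hold TTCNNNGAA, 32.7% GGGCGG, 33.8% CCAAT and 12.4% TATAAA. A match is a run of letters and no measured binding site, and no binding or chromatin data were analysed here.

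Fas (Ensembl ENSMUSG00000024778, chromosome 19 of GRCm38 from 34290666 to 34327772) encodes the receptor through which Fas ligand kills hepatocytes. It had 18.5, 14.0 and 17.7 TPM in vehicle samples and 25.3, 24.7 and 27.4 TPM in TCS samples. The lowest TCS sample was thus well above the highest vehicle sample. The fitted difference was 0.60 in log2 TPM + 1 (95% interval 0.32 to 0.88, SE (standard error) 0.12, limma adjusted p = 0.0875), which lies 0.47 above the median gene. Its unadjusted p ranked 245 among the 13325 genes. With limma's array weights, which weigh samples by their scatter, the adjusted p of Fas was 0.0320 at a log2 fold change of 0.51, a setting that called 9.31% of all genes. Over all 13 alternatives the adjusted p of Fas ran from 0.0320 to 0.252.

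Tnfrsf1a (chromosome 6, 125349362 to 125362484), which encodes TNF receptor 1, was the most even of the 9 genes. It had 41.5, 40.6 and 40.9 TPM in vehicle and 41.0, 39.2 and 40.7 TPM in TCS samples, and the groups overlapped. Its log2 fold change was -0.02, and its 95% interval of -0.17 to 0.12 did not reach the estimate of Fas. Relative to the median gene, however, it lay 0.16 lower, and with median-of-ratios rescaling its log2 fold change of -0.17 had an unadjusted p of 0.0448 (limma adjusted p = 0.283). The difference between the receptors was not tested as such. Tnfrsf1b, the TNF receptor without a death domain, went the other way from Fas, with 17.0, 16.1 and 14.7 TPM in vehicle and 11.9, 11.4 and 13.9 TPM in TCS samples. Its log2 fold change was -0.34 (SE 0.10, limma adjusted p = 0.137).

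Fadd (chromosome 7, 144577318 to 144582463), the adaptor that links Fas to Casp8, was the scarcest of the 9 genes. It had 1.79, 1.85 and 1.82 TPM in vehicle and 2.06, 2.30 and 1.95 TPM in TCS samples. The groups did not overlap, yet the log2 fold change of TPM + 1 was 0.14 (95% interval -0.11 to 0.39, limma adjusted p = 0.451), close to that of the median gene. At such low levels the added 1 TPM draws fold changes toward 0. Of its 3903 exonic bases, 6.12% are shared with an antisense gene, Faddos.

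Casp8 (chromosome 1, 58795374 to 58847503), the initiator caspase of the receptor branch, had 24.6, 29.7 and 30.4 TPM in vehicle and 33.6, 33.1 and 40.7 TPM in TCS samples. All TCS samples were above all vehicle samples, and TCS replicate 3 was the highest of the 6. The log2 fold change of Casp8 was 0.33 (95% interval 0.05 to 0.62, SE 0.12, limma adjusted p = 0.177), 0.20 higher than the median gene. Casp9 (chromosome 4, 141793612 to 141815976), the initiator caspase of the mitochondrial branch, was scarcer and more scattered, with 3.97, 6.0 and 4.78 TPM in vehicle and 5.0, 5.69 and 6.96 TPM in TCS samples. Its groups overlapped, and the log2 fold change of 0.22 had a 95% interval of -0.18 to 0.62 (limma adjusted p = 0.441) and was 0.09 after median-of-ratios rescaling. Casp2, another initiator caspase, ran from 2.79 to 2.89 TPM in vehicle and from 3.05 to 4.55 TPM in TCS samples. Thus all 3 initiator caspases were higher on average in TCS, as were 74.8% of all genes, and lay above the median gene. Limma's adjusted threshold was passed by 0 of the 3, next to 0.173% of all genes. At an unadjusted p under 0.05, 1 of the 3 was higher (Casp8), next to 19.5% of all genes.

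Bid (chromosome 6, 120891930 to 120916853), the substrate through which Casp8 reaches the mitochondria, had 6.41, 7.66 and 7.71 TPM in vehicle and 8.0, 9.13 and 9.13 TPM in TCS samples. The groups were apart by a narrow margin. Its log2 fold change was 0.24 (95% interval -0.01 to 0.49, limma adjusted p = 0.227), and 0.11 after median-of-ratios rescaling. On the opposite strand Bcl2l13 covers 17.7% of the 3550 exonic bases of Bid. The study's methods describe strand-specific reads for values over RefSeq exons, and whether this holds for the deposited TPM is not given in the sources used here.

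Bax (chromosome 7, 45461697 to 45466898), which forms the pore in the outer mitochondrial membrane, differed little. Vehicle samples had 20.9, 22.1 and 20.9 TPM and TCS samples 23.2, 20.4 and 23.9 TPM, so TCS replicate 2 was the lowest of the 6. The log2 fold change of Bax was 0.07 (95% interval -0.13 to 0.27, limma adjusted p = 0.613), and its sign turned to -0.07 with either median-of-ratios rescaling or quantile normalization. Bak1, another pore former, ran from 3.75 to 7.37 TPM in vehicle and from 6.18 to 8.29 TPM in TCS samples, with overlap. A protein-coding gene model on the same strand, Gm45808, shares 12.2% of the exonic bases of Bax.

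Bcl2l1 (Ensembl ENSMUSG00000007659, chromosome 2 of GRCm38 from 152780668 to 152831728) showed the largest difference of the set. It had 23.2, 29.0 and 20.7 TPM in vehicle and 13.5, 14.6 and 14.3 TPM in TCS samples. The TCS samples lay close together, and all of them were below the lowest vehicle sample. The fitted difference was -0.73 in log2 TPM + 1 (95% interval -1.04 to -0.42, SE 0.13, limma adjusted p = 0.0847), which lies 0.86 below the median gene, and the unadjusted p ranked 148 among all genes. With 1 replicate left out the log2 fold change ran from -0.83 to -0.60 and the adjusted p from 0.0795 to 0.246. Array weights gave an adjusted p of 0.0251 at a log2 fold change of -0.66. The table holds 1 value per gene, so the long product Bcl-xL and the short product Bcl-xS, which opposes it, were not separated.

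Mcl1 (chromosome 3, 95658788 to 95663176), the other survival protein of the set, was higher in TCS samples. It had 39.8, 38.9 and 43.0 TPM in vehicle and 44.7, 46.4 and 49.5 TPM in TCS samples, without overlap. Its log2 fold change of 0.20 (95% interval 0.03 to 0.38, SE 0.07, limma adjusted p = 0.179) was 0.07 above the median gene, and 0.05 after median-of-ratios rescaling. Thus the 2 survival genes differed in opposite directions, and most of the higher level of Mcl1 was shared by the median gene.

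**Figure D2:**
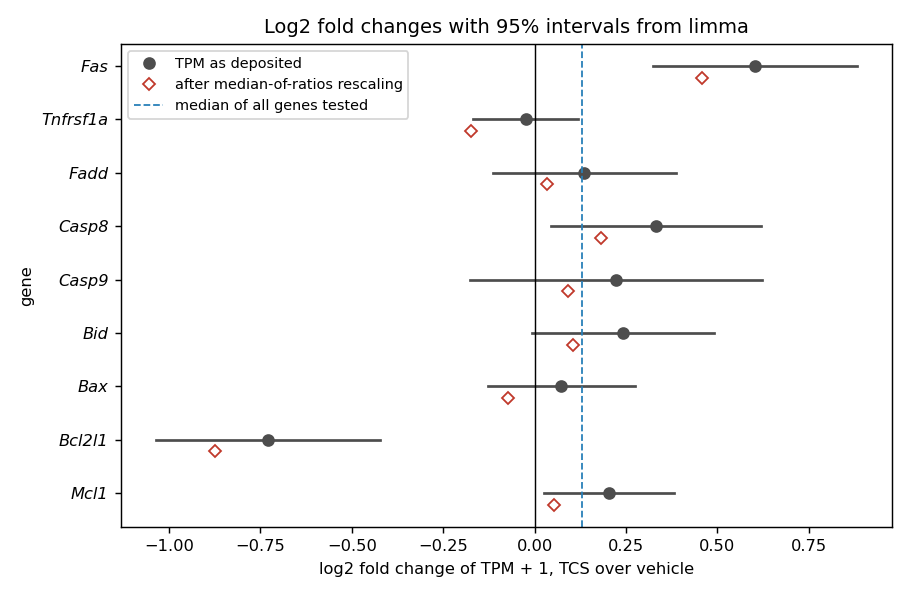
Filled points show the log2 fold change of TPM + 1, TCS over vehicle, of each gene with its 95% interval from limma, and open diamonds the value after median-of-ratios rescaling. The dashed line is the median of all 13325 genes, 0.13. The interval of Fas lies wholly above it, and those of Bcl2l1 and Tnfrsf1a lie wholly below it.

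In vehicle livers the order of the levels was Tnfrsf1a at 41.0 ± 0.458 TPM, Mcl1 at 40.6 ± 2.15, Casp8 at 28.2 ± 3.17, Bcl2l1 at 24.3 ± 4.26, Bax at 21.3 ± 0.693, Fas at 16.7 ± 2.40, Bid at 7.26 ± 0.737, Casp9 at 4.92 ± 1.02 and Fadd at 1.82 ± 0.0300 TPM (SD, n = 3). Samples of Tnfrsf1a and Mcl1 overlapped and changed order between samples, as did those of Bcl2l1 and Bax, so these neighbours could not be put in order. Casp8 and Bcl2l1 overlapped too, but Casp8 was higher within each vehicle sample (24.6 against 23.2, 29.7 against 29.0 and 30.4 against 20.7 TPM). In TCS livers Mcl1 came first at 46.9 ± 2.43 TPM and Tnfrsf1a next at 40.3 ± 0.964 TPM (SD, n = 3). Tnfrsf1a and Casp8 overlapped there, with 40.7 TPM each in TCS replicate 3. Bcl2l1 was below Fas (25.8 ± 1.42 TPM) and Bax (22.5 ± 1.85 TPM) at 14.1 ± 0.569 TPM (SD, n = 3).

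Ratios between genes of 1 sample do not depend on how TPM is scaled between samples. The sensitivity of a cell to death signals is known to follow the balance of these proteins rather than the level of any one, and RNA ratios give the balance of transcripts alone. By TUNEL staining the paper found no difference in cell death between livers of TCS breastfed and vehicle mice. Bax over Bcl2l1 was 0.901, 0.762 and 1.01 in vehicle and 1.72, 1.40 and 1.67 in TCS samples. In vehicle livers the 2 transcripts were thus about level, and every TCS sample had more Bax than Bcl2l1. On the log2 scale the ratio was 0.84 higher in TCS (exact permutation test, two-sided p = 0.1, the smallest that 3 against 3 samples allow, and 0.2 when adjusted over the 6 ratios compared). Bid over Bcl2l1 was 0.276, 0.264 and 0.372 in vehicle and 0.593, 0.625 and 0.638 in TCS samples, a log2 difference of 1.04 with the same exact p of 0.1 (adjusted 0.2). Bcl2l1 is the shared denominator of both ratios, so they are no separate results.

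Against Mcl1 the balance looked otherwise. Bax over Mcl1 was 0.525, 0.568 and 0.486 in vehicle and 0.519, 0.440 and 0.483 in TCS samples, which overlapped (log2 difference -0.13, exact permutation p = 0.2, adjusted 0.3). The summed TPM of the survival genes Bcl2l1, Mcl1, Bcl2 and Bcl2l2 was 71.5, 76.7 and 75.2 in vehicle and 67.2, 71.3 and 74.5 in TCS samples, again with overlap. Of the survival genes listed, Bcl2l10 was at 0 in every sample, and Bcl2 ran from 0.521 to 0.898 TPM. Within that sum Bcl2l1 made up 32.5, 37.8 and 27.5% in vehicle and 20.1, 20.5 and 19.2% in TCS samples, and Mcl1 made up 55.7, 50.7 and 57.2% in vehicle and 66.5, 65.1 and 66.4% in TCS samples. The make-up of these survival transcripts therefore separated the groups, and their sum did not. The sum leaves out Bcl2a1a, Bcl2a1b and Bcl2a1d, of which only Bcl2a1b passed the filter. Bcl2a1b had 1.40 ± 0.995 TPM in vehicle and 1.95 ± 0.474 TPM in TCS (SD, n = 3), with overlap. Shares of the same sum depend on each other, so they are no results separate from the values of Bcl2l1 and Mcl1. Bax over this sum had a log2 difference of 0.15 (exact permutation p = 0.3, adjusted 0.3).

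Cflar encodes cFLIP, which competes with Casp8 for Fadd and so blocks the signal of Fas. It had 44.4, 37.3 and 40.3 TPM in vehicle and 42.0, 44.0 and 49.1 TPM in TCS samples, with overlap, and was more abundant than Casp8 in every sample. Fas over Cflar was 0.417, 0.375 and 0.439 in vehicle and 0.602, 0.561 and 0.558 in TCS samples. All TCS samples were above all vehicle samples, with a log2 difference of 0.49 (exact permutation p = 0.1, adjusted 0.2). This ratio reuses the values of Fas, so it is no result separate from the difference in Fas. Casp8 over Cflar overlapped, at 0.554, 0.796 and 0.754 in vehicle and 0.80, 0.752 and 0.829 in TCS samples (log2 difference 0.19, exact permutation p = 0.3, adjusted 0.3, and 0.03 without vehicle replicate 1).

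**Figure D3:**
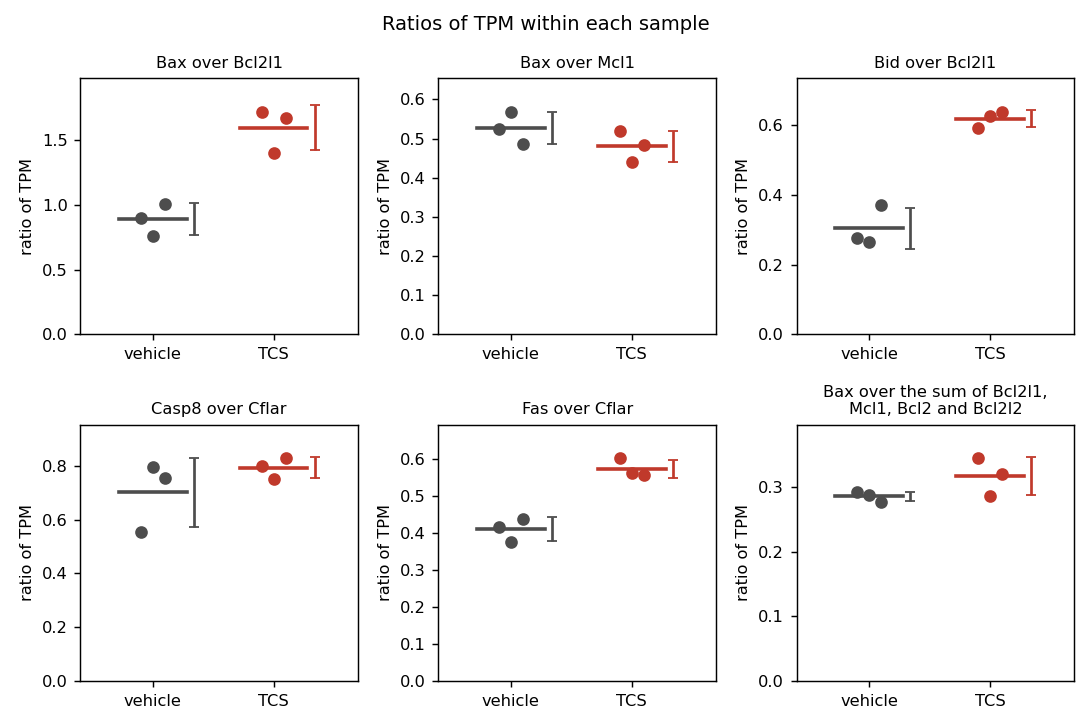
Each panel shows 1 ratio of TPM within a sample from 0 upward, with a point per pooled liver sample, a line at the group mean and a bar of 1 SD (n = 3 per group). Bax over Bcl2l1, Bid over Bcl2l1 and Fas over Cflar lie higher in all TCS samples, and the other 3 ratios overlap.

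The pathway around the 9 genes was read from lists by role, which together hold 107 genes, 98 of them beyond the 9. Of these 98, 81 passed the filter, and by limma 0 had an adjusted p under 0.05, while 13 (16.0%, next to 19.5% of all genes) were higher and 5 (6.17%, next to 3.50%) were lower at an unadjusted p under 0.05. Their median log2 fold change was 0.10, against 0.13 for all genes tested.

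The ligands were scarce. Fasl, which encodes Fas ligand, had 0.197, 0.0845 and 0.0924 TPM in vehicle and 0.211, 0.0814 and 0.0261 TPM in TCS samples, and Tnf ran from 0.0493 to 0.121 TPM in vehicle and from 0.0254 to 0.0771 TPM in TCS samples. Neither reached the level needed for the test, nor did 3 further ligands of the 8 listed. Tnfsf10, which encodes TRAIL, had 1.19 ± 0.217 TPM in vehicle and 1.52 ± 0.338 TPM in TCS (SD, n = 3), and Tnfsf12, which encodes TWEAK, 7.86 ± 1.76 and 6.34 ± 0.985 TPM. Both overlapped between the groups (adjusted p = 0.457 and 0.380 from limma).

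Of all genes tested 74.8% were higher on average in TCS, against which such counts are to be read. Of 13 tested adaptors and regulators around the receptors, 12 were higher on average, and their median log2 fold change of 0.14 was close to that of the median gene. Tradd, the adaptor of TNF receptor 1, had 6.27 ± 0.543 TPM in vehicle and 8.05 ± 0.622 TPM in TCS (SD, n = 3), and its log2 fold change was 0.32 (limma adjusted p = 0.146). Rbck1, a subunit of the ligase that adds linear ubiquitin to that receptor complex, had a log2 fold change of 0.19, and 0.04 after median-of-ratios rescaling. Among genes of necroptosis, the lytic death that runs when caspases are blocked, Zbp1 came closest of all 107 to the threshold. Zbp1, a sensor of nucleic acids that is also induced by interferon, had 7.24, 6.54 and 7.12 TPM in vehicle and 11.4, 10.7 and 10.9 TPM in TCS samples, without overlap. Its log2 fold change was 0.59 (SE 0.08, limma adjusted p = 0.0558), and its adjusted p was under 0.05 among the genes that reached 5 TPM and with array weights. Those settings called 0.672% and 9.31% of the genes they tested. Mlkl, the executor of necroptosis, ran from 3.35 to 3.71 TPM in vehicle and from 3.84 to 6.72 TPM in TCS samples (log2 fold change 0.51, limma adjusted p = 0.189). Ripk1, the kinase that both routes share, had a log2 fold change of 0.05, which turned to -0.09 after median-of-ratios rescaling.

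Among the 7 executioner caspases and their substrates, 5 were higher and 2 lower on average, with a median log2 fold change of 0.18. Parp1, a DNA repair enzyme that executioner caspases cleave, had 15.3 ± 2.02 TPM in vehicle and 21.6 ± 1.23 TPM in TCS (SD, n = 3), without overlap. Its log2 fold change was 0.47 (SE 0.11, limma adjusted p = 0.10). The most abundant, Acin1, which acts on chromatin during apoptosis, had a log2 fold change of 0.18, and 0.03 after median-of-ratios rescaling.

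BH3-only genes, which start the mitochondrial branch, went both ways. Bnip3, a mitochondrial protein of the family with a larger role in mitophagy, had 244, 290 and 220 TPM in vehicle and 180, 174 and 182 TPM in TCS samples, without overlap (log2 fold change -0.48, SE 0.11, limma adjusted p = 0.0981). Bbc3, which encodes the p53 target PUMA, had 2.30, 3.85 and 2.56 TPM in vehicle and 3.85, 6.97 and 4.92 TPM in TCS samples, where the lowest TCS sample equalled the highest vehicle sample (log2 fold change 0.67, SE 0.23, limma adjusted p = 0.165). The 8 tested BH3-only genes had a median log2 fold change of -0.05. Downstream of Bax, all 8 genes of the apoptosome, of mitochondrial release and of the inhibitors of apoptosis were higher on average, with a median log2 fold change of 0.11 that did not exceed that of all genes. Diablo, which releases caspases from their inhibitors, had a log2 fold change of 0.23 (limma adjusted p = 0.165), and Xiap, the inhibitor it binds, 0.18 (adjusted p = 0.253). Aifm1, the most abundant of the 8, had 0.08, with its sign turned to -0.07 after median-of-ratios rescaling.

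Fas, Bax and Bbc3 are known targets of p53, so 16 other genes of that pathway were listed. Of 15 tested, 11 (73.3%) were higher and 4 lower on average, next to the 74.8% of all genes, with a median log2 fold change of 0.19. Perp, a p53 target at cell junctions, had 47.5 ± 2.57 TPM in vehicle and 62.2 ± 6.56 TPM in TCS (SD, n = 3), and its log2 fold change was 0.38 (limma adjusted p = 0.110). For Trp53 itself the values were 12.4 ± 0.586 and 15.9 ± 1.42 TPM, a log2 fold change of 0.33 (limma adjusted p = 0.125). A pair of p53 targets, chosen here after their values were seen, had the lowest log2 fold changes of the list. Btg2, which restrains proliferation, had 15.1, 11.4 and 6.53 TPM in vehicle and 6.02, 6.20 and 5.49 TPM in TCS samples, without overlap (log2 fold change -0.73, limma adjusted p = 0.179). Cdkn1a, the inhibitor of the cell cycle, had 25.2, 8.20 and 3.33 TPM in vehicle and 2.51, 2.93 and 4.83 TPM in TCS samples, with overlap. The log2 fold change of Cdkn1a, -1.23 (limma adjusted p = 0.279), was -0.55 without vehicle replicate 1.

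TNF receptor 1 signals through NF-kB, and of 12 tested genes of that pathway 6 were higher and 6 lower on average, with a median log2 fold change of -0.01. Vcam1, an adhesion molecule, had 24.3 ± 2.45 TPM in vehicle and 16.5 ± 1.13 TPM in TCS (SD, n = 3), without overlap (log2 fold change -0.53, limma adjusted p = 0.0866). Icam1, another adhesion molecule, had 8.97 ± 1.25 and 11.3 ± 0.700 TPM, also without overlap but in the other direction (log2 fold change 0.31, limma adjusted p = 0.189). The feedback inhibitor Nfkbia, the most abundant of the list, had 40.1 ± 0.700 and 36.3 ± 0.693 TPM (log2 fold change -0.14, limma adjusted p = 0.224). Of 8 tested genes linked to death under ER stress, 5 were lower and 3 higher on average, next to 74.8% of all genes that were higher. Ddit3 (Chop) is named because the paper reports its induction by Q-RT-PCR. It had 8.76 ± 2.29 TPM in vehicle and 8.11 ± 1.21 TPM in TCS (SD, n = 3), with overlap (limma adjusted p = 0.816). Chac1, which degrades glutathione under that stress, had 4.95, 3.85 and 5.53 TPM in vehicle and 1.45, 2.19 and 2.88 TPM in TCS samples (log2 fold change -0.88, SE 0.20, limma adjusted p = 0.10), while Atf4, the transcription factor upstream of it, had a log2 fold change of 0.13, close to that of the median gene.

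**Figure D4:**
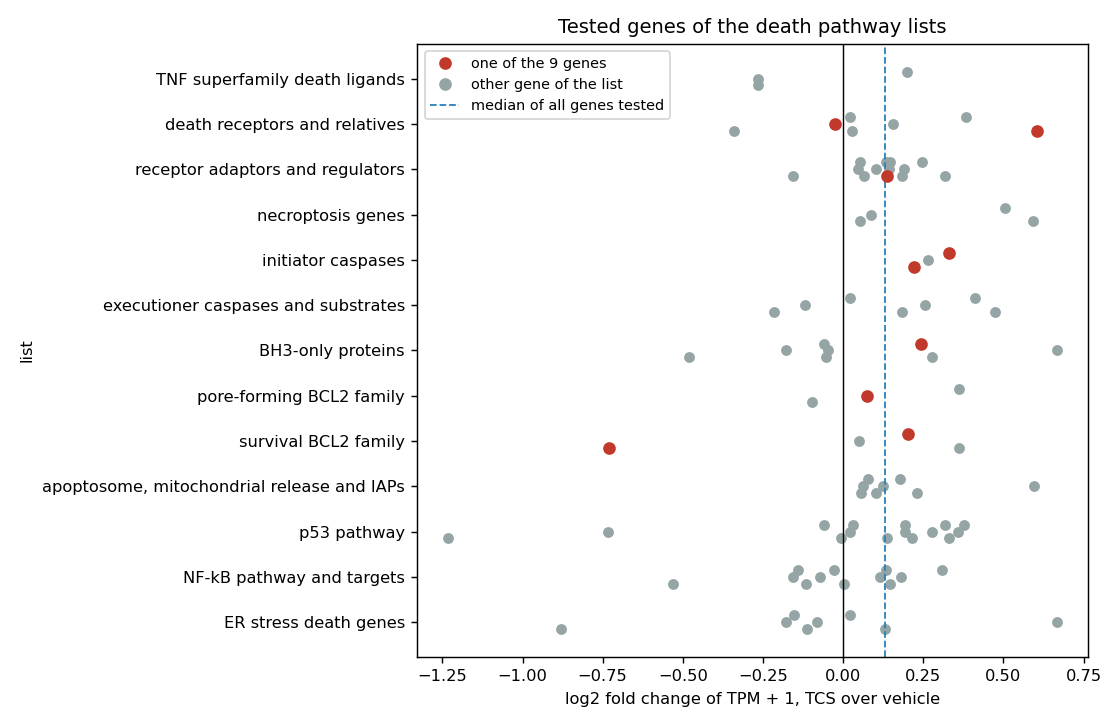
Points show the log2 fold change of TPM + 1, TCS over vehicle, of each tested gene in 13 lists by role, spread vertically for legibility, with the 9 genes in red. Most points lie near the dashed median of all genes, 0.13, while Bcl2l1 at -0.73 is the lowest of its list and Fas at 0.60 the highest of its own.

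By Euclidean distance of mean-centred log2(TPM + 1) over the 6 samples, the gene nearest to Bcl2l1 was Susd6, with 19.4, 22.8 and 16.3 TPM in vehicle and 11.6, 11.2 and 12.5 TPM in TCS samples. The next were 2500002B13Rik, a processed transcript, and Asl, the argininosuccinate lyase of the urea cycle, which had 531, 644 and 477 TPM in vehicle and 342, 310 and 347 TPM in TCS samples. The distances were 0.166, 0.174 and 0.186 on the log2 scale. All share with Bcl2l1 the highest value in vehicle replicate 2.

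The samples had the markers of liver, with Alb at 8.76 to 10.7% of all TPM. In whole liver, fewer cells of a type and less RNA per cell cannot be told apart. Lists of markers were set beside the 9 genes because Fas and Casp8 are also expressed by immune cells. The summed level of 9 Kupffer cell markers was 305 to 363 TPM in vehicle and 307 to 380 TPM in TCS samples. That of 11 T, NK and B cell markers was 8.14 to 10.8 and 7.40 to 10.6 TPM, and both sums overlapped. Of the 9 Kupffer cell markers, 6 were higher and 3 lower on average, next to 74.8% of all genes that were higher. By immunohistochemistry the paper reports more immune infiltration in TCS livers. The part of immune cells in the values of Fas and Casp8 was not tested. Sums of neutrophil (57.5 to 131 and 48.4 to 82.1 TPM), sinusoidal endothelial (189 to 209 and 182 to 202 TPM), stellate (280 to 310 and 275 to 285 TPM) and cholangiocyte markers (5.22 to 15.8 and 9.32 to 10.9 TPM) also overlapped. A sum is carried by its most abundant genes, and single markers did separate the groups, next to 25.1% of all genes on the higher side and 4.61% on the lower side. Csf1r (1 of 9 Kupffer cell markers tested), Kdr (1 of 7 of endothelium) and Pdgfrb (1 of 7 of stellate cells) were higher in all TCS samples. Lyve1 and Clec4g (2 of 7 of endothelium) and Dcn (1 of 7 of stellate cells) were lower. The largest of these differences was that of Pdgfrb, with 2.69 to 2.71 TPM in vehicle and 3.15 to 4.13 TPM in TCS samples (limma adjusted p = 0.158). The summed level of 8 hepatocyte markers did not overlap between the groups, at 129941 to 140986 TPM in vehicle and 114414 to 118960 TPM in TCS samples. It was lower in TCS, with a difference of means of -13.9%, and all 8 were lower on average. Erythroid markers were lower as well (3592 to 3909 and 3125 to 3512 TPM, -11.8%). No marker was at 0 in every sample, and the neutrophil marker Ly6g was at 0 in 3 of the 6. The part of these shifts in the values of Bcl2l1 and Fas was not tested.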

How the data were processed

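Liver RNA of 6 samples was sequenced, 3 vehicle and 3 TCS. Per the labels and methods, the submitters used bcl2fastq 2.17.1.14 for base calling and STAR 2.2.0c for alignment to mm10, keeping uniquely aligned reads. Their methods describe FPKM over RefSeq exons from HOMER, whereas the table the authors deposited holds TPM under Ensembl identifiers, to 3 significant digits, and the step behind it is not given in the sources used here. TPM keeps no read depth, and counting error could not be estimated. A sheet with the authors' deposited log2 fold changes and adjusted p-values of TCS against vehicle was not used.

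The fit used limma 3.58.1 in R 4.3.3 on log2(TPM + 1) of every gene that reached 1 TPM in 3 or more samples, with a variance trend and Benjamini-Hochberg adjustment over all genes tested (threshold 0.05). The test was checked on simulated data. Ratios of TPM were compared by exact permutation over samples. Positions are those of GENCODE M21. Named genes were the 9, and from each list the 2 with the smallest p and the most abundant, with the nearest profiles, partners of the ratios, Fasl, Tnf and stated exceptions. Values of some listed genes are not reported here. The genes and lists were chosen with earlier results of these data known. The numbers of the table's columns name samples and pair none. Other settings tried were 0.1 TPM as the pseudocount, all genes unfiltered, 5 TPM as the minimum, median-of-ratios rescaling, quantile normalization, no variance trend, array weights and each replicate left out.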

Additional observations from a re-analysis of the deposited data

How the results depend on the processing

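Over 13 alternatives (12 for Fadd, which fails the filter at 5 TPM), the log2 fold changes of 8 of the 9 genes kept their sign. The exception was Bax, whose value was -0.0739 when rescaled by median-of-ratios factors, -0.0658 when quantiles were equalised and -0.00808 when arrays were weighted. With array weights 2 of the 9 genes (Fas and Bcl2l1) and 12 of the 90 tested pathway genes had an adjusted p under 0.05, as had 9.31% of all genes. With the filter at 5 TPM 1 pathway gene did (Zbp1), as did 0.672% of all genes tested at that filter. With either rescaling 1 of the 9 genes was higher and 2 were lower at an unadjusted p under 0.05. Of all genes, 8.28% were then higher and 8.76% lower with median-of-ratios rescaling, and 8.71% and 8.28% with quantile normalization. With 1 replicate left out the number higher ran from 1 (without vehicle replicate 1 or TCS replicate 3, Fas alone) to 4 (without TCS replicate 1). Higher in these fits were 13.2%, 11.8% and 21.9% of all genes, in that order. The 6 ratios kept their direction with 1 TPM added to each term and with each replicate left out. Without the read depth, genes near 1 TPM such as Fadd have a precision that is not known. The column numbers come from the table and not from the sample labels, so no paired fit was made.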
